A study of Bos taurus with 4 samples.

Results

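Glutamine synthesis and amino acid transport were followed in granulosa cells of cattle through 6 genes of the 15216 that the array's annotation names. GLUL was selected on its ratio between the donor groups in these arrays, so its values are given as a description without a test. GLUD1, SLC38A2, SLC38A3, SLC1A5 and ASNS were selected by their role, and their ratios were tested. The 6 genes had 9 of the 43794 probes, and 8 of these 9 entered the tests because their signal rose above the control spots in at least 4 of the 8 pools.

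Granulosa cells, which line the ovarian follicle and nourish its oocyte, were collected from Holstein donors in a commercial embryo facility after ovarian stimulation and coasting, an interval without hormone before collection. Good-donor pools came from donors whose oocytes had a high developmental competence and poor-donor pools from donors whose oocytes had a low one, and all 8 pools share the breed, the stimulation and the coasting. The labels name heifers, whereas the design text sets cows against heifers within 94 animals, so a difference in age class cannot be told apart from the donor rating. The number of animals in each pool is not given in the sources used here. Every array paired 1 pool of each kind, and 4 arrays were used. Arrays 1 and 2 carried the good donors in Cy5, arrays 3 and 4 in Cy3. The RNA had passed through 2 rounds of linear amplification.

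Glutamine synthetase, the product of GLUL, joins ammonia to glutamate and so makes glutamine, the nitrogen donor for nucleotides, amino sugars and asparagine. Neutral amino acids reach the cell through sodium-coupled carriers of the SLC38 and SLC1 families. In the follicle the somatic cells hand metabolites to the oocyte through gap junctions, and in the mouse the cumulus cells take up alanine, which the oocyte itself carries poorly, through SLC38A3. When amino acids run short, the transcription factor ATF4 raises ASNS, SLC38A2 and other genes of supply.

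A level below is a log2 intensity after normalisation, and a ratio is the log2 ratio of good over poor on 1 array, so that a negative ratio means a lower signal in the good-donor pool. Levels of different probes are not comparable, because each probe has its own brightness. In a pool, fewer cells that carry a transcript and less of it in each cell cannot be told apart. Median foreground intensity was between 49.5 and 53.8 in the Cy5 channels and between 89.9 and 131 in the Cy3 channels. The SD of the ratios over all probes tested was 0.32, 0.28, 0.27 and 0.42 on arrays 1 to 4, and 876 probes differed by 2-fold or more on array 4, against 286 to 475 on the other arrays. Of 31917 probes tested, 0 (0%) passed limma's adjusted threshold of 0.05, the lowest adjusted p was 0.614, and 1133 had an unadjusted p under 0.05. The granulosa markers INHA, INHBA, CYP19A1, CYP11A1, FSHR, AMH, FOXL2 and LHCGR all had a tested probe, and 7 of the 8 were above the control level in all 8 pools.

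GLUL was lower in the good-donor pool on all 4 arrays. Its level in the good-donor pools of arrays 1 to 4 was 9.18, 9.09, 8.92 and 8.81, with a mean of 9.00 ± 0.17 (SD, n = 4). In the poor-donor pools it was 9.44, 9.73, 9.44 and 10.05, with a mean of 9.67 ± 0.29 (SD, n = 4). The groups did not overlap, since the highest good-donor pool lay below the lowest poor-donor pool. The ratios were -0.26, -0.64, -0.52 and -1.24, with a mean of -0.67 ± 0.42 (SD, n = 4), which is 1.59-fold more signal in the poor-donor pools. Array 4 held both the lowest good-donor and the highest poor-donor level. Of all probes tested, 4.17% were lower in the good-donor pool on all 4 arrays, and 0.786% had good-donor levels that all lay below the poor-donor levels. Because GLUL was selected on this ratio, nothing is read from its place among these probes.

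**Figure D1:**
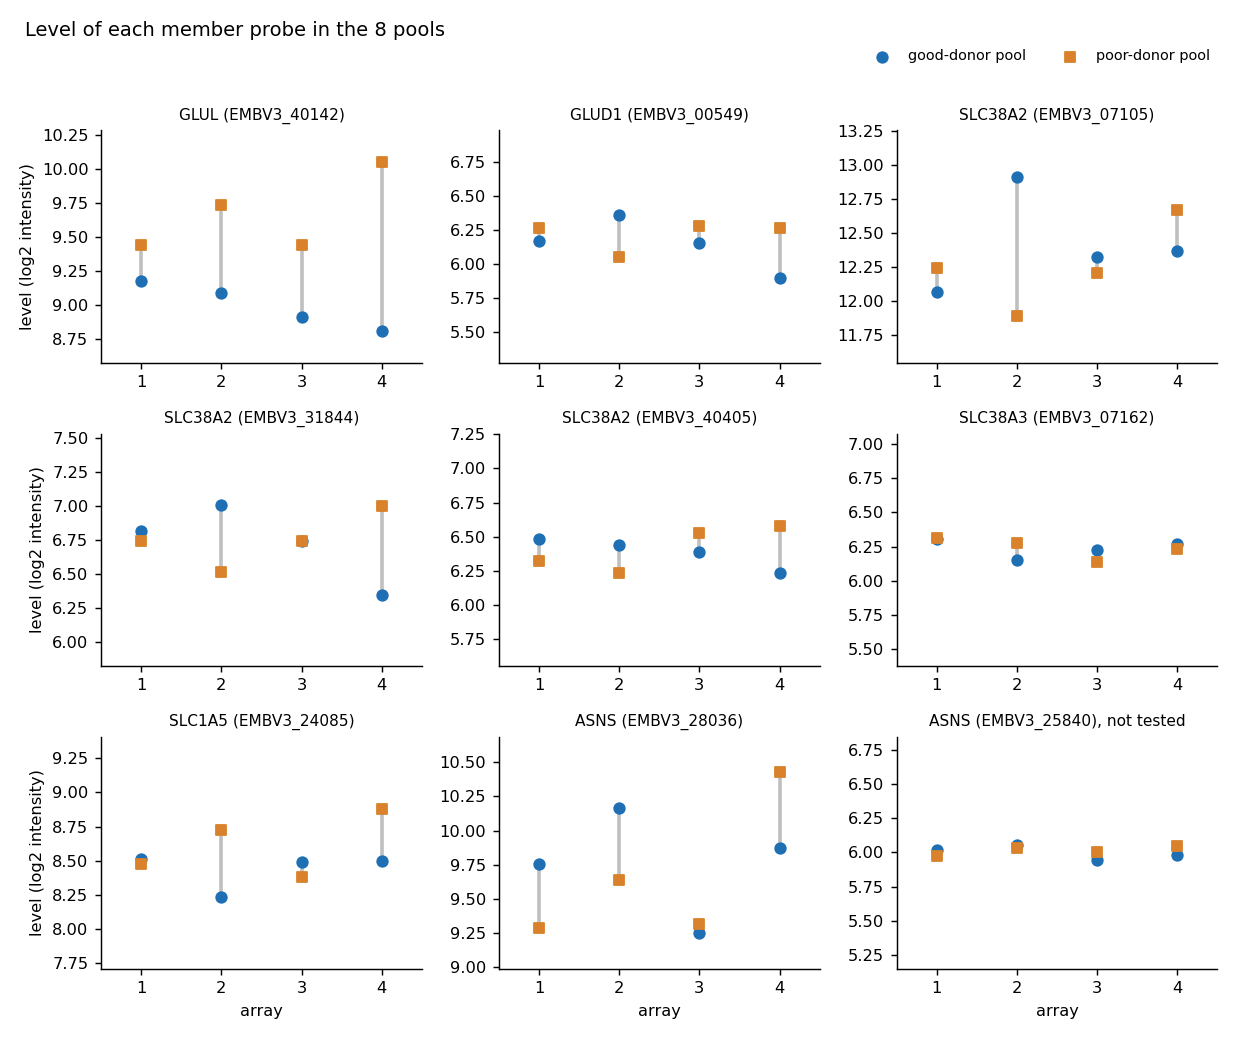
Level of each of the 9 probes in the 8 pools, as log2 intensity on the vertical axis and by array on the horizontal axis; blue circles are good-donor pools, orange squares are poor-donor pools, and a grey line joins the 2 pools of an array. All panels span the same distance on the vertical axis, each placed at its own level. For GLUL the 4 good-donor pools, at 8.81 to 9.18, lie below the 4 poor-donor pools, at 9.44 to 10.05, and for each of the other probes the groups overlap.

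GLUL was read by a single probe, EMBV3_40142, whose signal was 6.46 to 16.8 times the control level in the 8 pools and at most 3.19% of the brightest probe of its channel. It was thus neither near the background nor near the top of the scale. The mean ratio was -0.45 over arrays 1 and 2, with good donors in Cy5, and -0.88 over arrays 3 and 4, with good donors in Cy3, so the sign was the same in both dye orientations. In the authors' deposited table, whose columns run as poor over good, the GLUL values of arrays 1 to 4 were 0.28, 0.63, 0.55 and 1.23. Among all 31917 probes tested, 238 had a mean ratio as low as that of GLUL or lower. Nothing is read from this count either, because GLUL was selected on this ratio.

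GLUD1, the mitochondrial glutamate dehydrogenase that interconverts glutamate and 2-oxoglutarate, was barely measured. Its signal was 0.833 to 1.17 times the control level, and it was above that level in 2 of 4 good-donor and 3 of 4 poor-donor pools. Good-donor levels were 6.17, 6.36, 6.15 and 5.90, and poor-donor levels were 6.26, 6.05, 6.28 and 6.27. Good donors had the lower level on arrays 1, 3 and 4, and the good-donor values spanned the whole range of the poor-donor values. The mean ratio of -0.07 ± 0.28 (SD, n = 4) had a limma 95% interval from -0.38 to 0.24 and an adjusted p of 1.00, and without array 4 the mean turned to 0.03. At this brightness the probe sets no firm limit on a difference between the donor groups.

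ASNS, which makes asparagine from aspartate with glutamine as nitrogen donor, varied widely between pools without following the donor group. The brighter of its probes, EMBV3_28036, lay at 9.75, 10.16, 9.25 and 9.87 in the good-donor pools and at 9.29, 9.64, 9.32 and 10.43 in the poor-donor pools. The poor-donor pool of array 4 was the highest of the 8 and the good-donor pool of array 3 the lowest, and the groups overlapped over most of their range. The ratios were 0.47, 0.53, -0.07 and -0.55, with a mean of 0.09 ± 0.51 (SD, n = 4), a limma 95% interval from -0.43 to 0.61 and an adjusted p of 1.00. Without array 1 the mean turned to -0.03, and without array 2 to -0.05. The ASNS ratio was above 0 on arrays 1 and 2, where good donors were in Cy5, with a mean of 0.50. It was below 0 on arrays 3 and 4, where they were in Cy3, with a mean of -0.31. Read as Cy5 over Cy3 instead, the mean was 0.40 (limma unadjusted p = 0.0179, adjusted p = 0.245 over all probes tested). The other ASNS probe, EMBV3_25840, was not above the control level in any of the 8 pools and was not tested.

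SLC38A2, a sodium-coupled carrier of small neutral amino acids that cells raise when amino acids are scarce, was bright, and its levels overlapped between the donor groups. Its brightest probe, EMBV3_07105, had 46.1 to 138 times the control level. Good-donor levels were 12.07, 12.91, 12.32 and 12.37, and poor-donor levels were 12.24, 11.89, 12.20 and 12.67. The highest and the lowest pool of the 8 were the good-donor and the poor-donor pool of array 2. The ratios of -0.17, 1.02, 0.12 and -0.30 had a mean of 0.17 ± 0.59 (SD, n = 4), with a limma 95% interval from -0.44 to 0.77 and an adjusted p of 1.00. Without array 2 the mean turned to -0.12. The interval includes a difference as large as that of GLUL in the opposite direction.

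The other SLC38A2 probes were dim, at 1.19 to 1.89 times the control level for EMBV3_31844 and 1.09 to 1.33 times for EMBV3_40405. Their mean ratios were -0.02 ± 0.47 and -0.03 ± 0.26 (SD, n = 4), with limma 95% intervals from -0.51 to 0.46 and from -0.31 to 0.26. They had the same sign as each other on 4 of 4 arrays, and each had the sign of the bright probe on 2 of 4. The bright probe differed from them by up to 0.52 and 0.81 on an array. Both dim probes were above 0 on array 1 and below 0 on array 3, the reverse of the bright probe.

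SLC38A3, the carrier of glutamine, histidine and asparagine that mouse cumulus cells use for the oocyte, was at the control level. Its probe had 0.881 to 1.10 times that level and was above it in 3 of 4 good-donor and 2 of 4 poor-donor pools. All 8 levels fell between 6.14 and 6.32, and the ratios were -0.01, -0.12, 0.09 and 0.04. They were below 0 where good donors were in Cy5 and above 0 where they were in Cy3. The mean was -0.001 ± 0.090 (SD, n = 4), with a limma 95% interval from -0.15 to 0.15. At this brightness a difference between donor groups was not detectable.

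SLC1A5, the exchanger that brings glutamine into the cell against other neutral amino acids, was well measured at 4.58 to 7.39 times the control level. Good-donor levels were 8.52, 8.23, 8.49 and 8.498, and poor-donor levels were 8.48, 8.73, 8.38 and 8.88. The donor groups overlapped, and the good-donor pool of array 2 was the lowest of all 8 while the other good-donor pools lay within 0.02 of each other. The ratios were 0.04, -0.49, 0.12 and -0.38, with a mean of -0.18 ± 0.30 (SD, n = 4), a limma 95% interval from -0.51 to 0.15 and an adjusted p of 1.00. The mean moved to -0.11 without array 4 and to -0.08 without array 2.

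**Figure D2:**
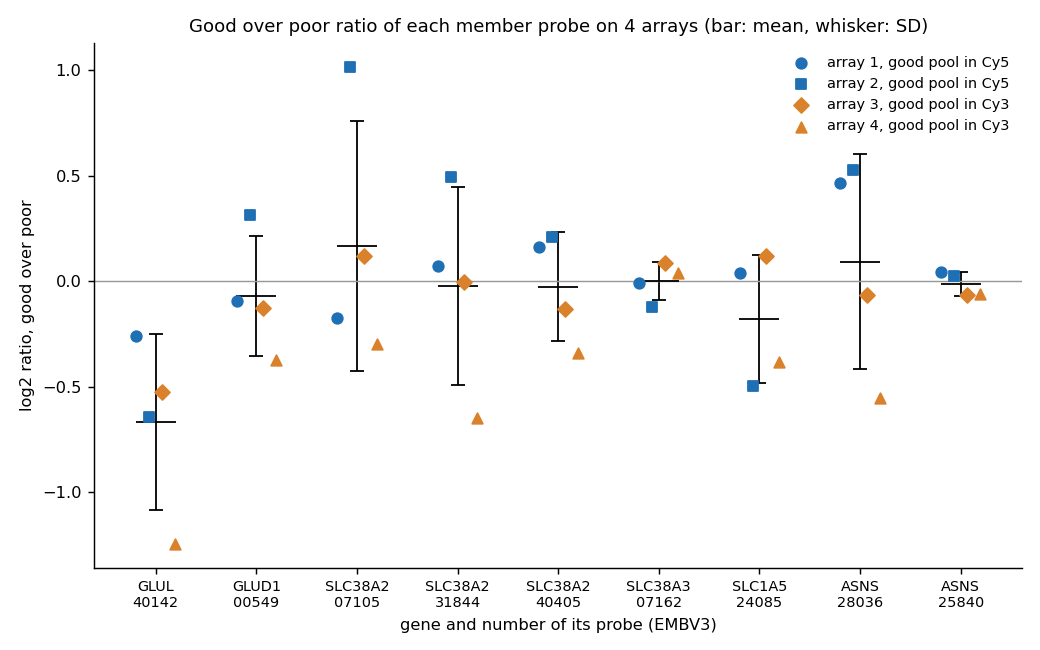
Log2 ratio of good over poor for each of the 9 probes on the 4 arrays; blue symbols mark good donors in Cy5, orange symbols good donors in Cy3, and the bar and whiskers are the mean and SD of the 4. GLUL lies below 0 on every array, from -0.26 to -1.24, while every other probe takes both signs. For both ASNS probes, the dim SLC38A2 probes and SLC38A3, the blue and orange symbols fall on opposite sides of 0.

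Across the 6 genes, the means thus ran from -0.67 for GLUL through -0.18 for SLC1A5, -0.07 for GLUD1 and -0.001 for SLC38A3 to 0.09 for ASNS and 0.17 for SLC38A2. The 5 genes other than GLUL all had intervals that included 0, and their order within that range is not resolved by 4 arrays. No test set GLUL against them, since GLUL was selected on its value. Over the 4 arrays, the root mean square difference from the GLUL ratios was 0.56 for SLC1A5, 0.68 for GLUD1, 0.77 for SLC38A3, 0.80 for ASNS and 1.01 for SLC38A2.

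The genes whose 4 ratios came nearest to those of GLUL were LOC100299139, PGAP6, TSPAN14, DEFB4A and STK17A, at root mean square differences of 0.13, 0.14, 0.15, 0.16 and 0.17 among 12597 genes compared. TSPAN14, a tetraspanin that escorts the protease ADAM10 to the cell surface, had ratios of -0.16, -0.48, -0.76 and -1.28. DEFB4A, a beta-defensin of epithelial defence, had ratios of -0.22, -0.41, -0.54 and -1.03, and its probe may also detect other members of the beta-defensin family. STK17A, a kinase linked to cell death, stood at 0.003 on array 1 and between -0.44 and -1.28 on the others. All 5 genes shared with GLUL a ratio below 0 on arrays 2 to 4 that was lowest on array 4, and each was read by 1 tested probe. The likeness is a description of 4 arrays and carries no test.

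Among 24 tested genes of glutamine and glutamate metabolism, counted without GLUL, GLUD1 and ASNS, 14 had a mean below 0, where 51.6% of all 12598 genes tested had one. Their median was -0.03, beside -0.003 over all genes, and it turned to 0.02 without array 3 and to 0.03 without array 4, which left 11 and 10 of the 24 below 0. Of the 24, 1 was lower on all 4 arrays and 3 were higher, against 4.65% and 5.41% of all genes tested. Unadjusted limma p-values under 0.05 went to 1 of the 24 in the lower and to 2 in the higher direction, against 1.92% and 2.71% of all genes, and 0 of them passed the adjusted threshold. GOT2, the mitochondrial aspartate aminotransferase, had a higher signal from good donors on all 4 arrays, with ratios of 0.01, 0.15, 0.54 and 0.46 and a mean of 0.29 ± 0.25 (SD, n = 4). Its cytosolic counterpart GOT1 had a mean of 0.05 ± 0.18 (SD, n = 4) with both signs. PHGDH and PSAT1 catalyse consecutive steps of serine synthesis, the latter with glutamate as amino donor. PHGDH had a mean of -0.10 ± 0.20 (SD, n = 4). PSAT1 ranged from 1.46 on array 1 to -1.30 on array 4, with a mean of -0.07 ± 1.15 (SD, n = 4), so its pools differed by more than 2-fold in opposite directions.

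Of 36 tested amino acid transporters, 21 had a mean below 0, against 51.6% of all genes tested, with a median of -0.01. Apart from the 3 members, 2 of 33 were lower and 2 higher on all 4 arrays, against 4.65% and 5.41% of all genes. Unadjusted limma p-values under 0.05 went to 3 of the 33 in the lower and to 1 in the higher direction, against 1.92% and 2.71% of all genes. Of the 33, 0 passed the adjusted threshold. SLC7A5 and SLC3A2 form the LAT1 exchanger, which exports glutamine to import leucine and other large neutral amino acids. SLC7A5 was lower in the good-donor pool by a nearly constant amount, with ratios of -0.22, -0.25, -0.24 and -0.26 and a mean of -0.24 ± 0.02 (SD, n = 4). Its unadjusted limma p was 0.0038 and its adjusted p 1.00. Its partner SLC3A2 had ratios of 0.32, 0.23, -0.11 and -0.06, above 0 where good donors were in Cy5 and below 0 where they were in Cy3. SLC7A6, which exchanges basic amino acids for glutamine and pairs with the same partner, was higher on 4 of 4 arrays, with a mean of 0.22 ± 0.04 (SD, n = 4), an unadjusted limma p of 0.0065 and an adjusted p of 1.00. Its 3 tested probes had means from 0.03 to 0.22.

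The remaining carriers named here had means close to 0 or a spread larger than the mean. SLC1A4, the relative of SLC1A5 that carries alanine, serine and cysteine, had ratios of 1.28, -0.73, -0.45 and -0.56, so that array 1 stood against the others, and its 3 probes had means from -0.12 to 0.14. In the SLC38 family, the mean was 0.13 ± 0.30 for SLC38A1, 0.04 ± 0.05 for SLC38A4, 0.09 ± 0.10 for SLC38A5 and 0.02 ± 0.11 for SLC38A7 (SD, n = 4). SLC38A1 and SLC38A4 were above the control level in 3 good-donor pools and 1 poor-donor pool. The cystine and glutamate exchanger SLC7A11 had a mean of -0.04 ± 0.06, the taurine carrier SLC6A6 of 0.01 ± 0.05 and the glycine carrier SLC6A9 of -0.05 ± 0.09 (SD, n = 4). No probe of SLC7A8 entered the tests.

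Of 22 tested genes of the response to amino acid shortage, 12 had a mean below 0, where 51.6% of all genes tested had one. Their median was -0.02, and 0 passed the adjusted threshold. Without array 4, 10 of the 22 had a mean below 0, with a median of 0.04. ATF4, the central transcription factor of this response, had a mean of -0.05 ± 0.16, and its target TRIB3, a pseudokinase, of -0.06 ± 0.14 (SD, n = 4). TRIB3 was dim, above the control level in 3 of 4 good-donor and 3 of 4 poor-donor pools, and sets no firm limit on a difference. DDIT3, a transcription factor of prolonged stress, had a mean of 0.11 ± 0.16 (SD, n = 4), and its 3 tested probes had means from -0.08 to 0.11. SESN2, a leucine sensor, had a mean of 0.04 ± 0.18 (SD, n = 4). The aminoacyl-tRNA synthetases, which load amino acids onto their tRNAs, had 9 of 16 genes with a mean below 0 and a median of -0.03, which turned to 0.01 without array 1 and to 0.01 without array 3. Genes by which amino acids act on the kinase mTORC1 had 7 of 20 with a mean below 0 and a median of 0.02, and without array 4 this became 11 of 20, with a median of -0.02. Over all 5 lists and without the 6 members, 107 genes were tested, of which 57 (53.3%) had a mean below 0, against 51.6% of all genes. On all 4 arrays 7 were lower and 8 higher, against 4.65% and 5.41% of all genes. Unadjusted limma p-values under 0.05 went to 8 of the 107 in the lower and to 5 in the higher direction, against 1.92% and 2.71% of all genes. The lists were chosen with earlier results of these data known, so nothing is read from these counts. Of the 107, 0 passed the adjusted threshold.

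**Figure D3:**
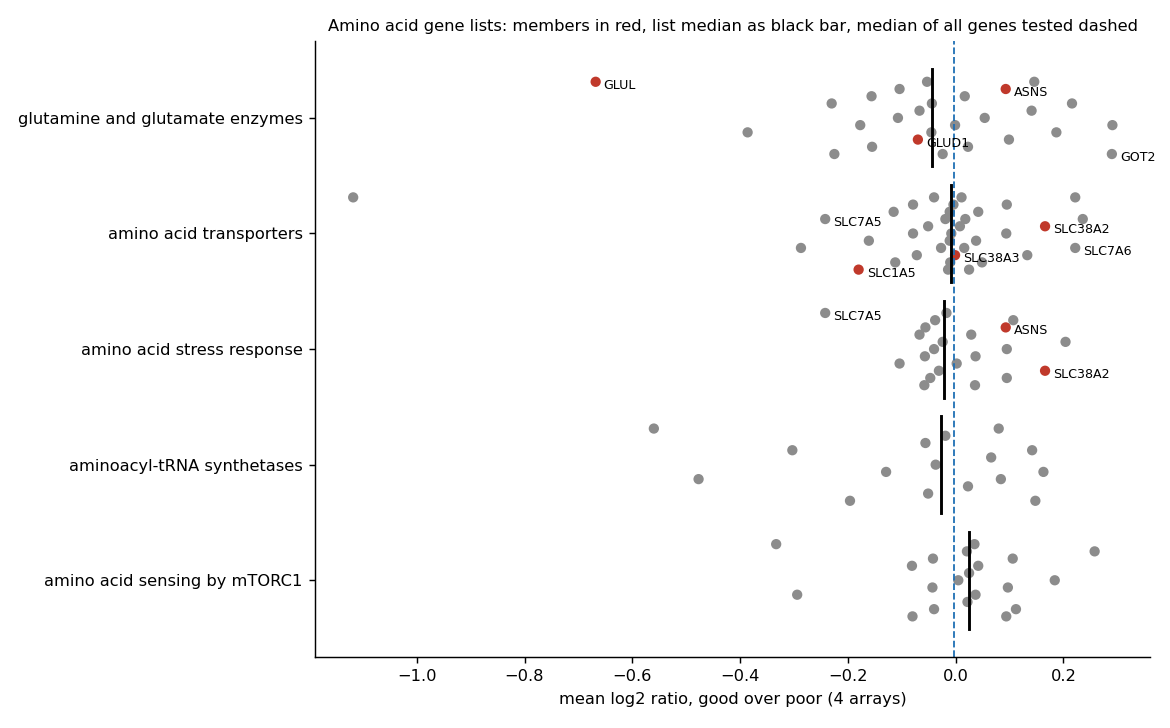
Mean log2 ratio of good over poor for each tested gene of the 5 amino acid lists, 1 row of points per list; the 6 selected genes are red, other genes grey, the black bar is the median of the list and the dashed blue line the median of all genes tested. The list medians, with the selected genes counted in, lie between -0.04 and 0.02, next to the median of -0.003 over all genes, and GLUL stands at -0.67.

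Markers of leukocytes and of epithelium were lower in the good-donor pool on array 4, where GLUL had its lowest ratio. Of 19 tested leukocyte markers, 18 had a mean below 0, against 51.6% of all genes tested, with a median of -0.19. Their medians on arrays 1 to 4 were 0.08, -0.14, 0.03 and -0.76. Their summed level was 10.905 to 11.634 in the good-donor pools and 11.357 to 12.975 in the poor-donor pools, with the highest value in the poor-donor pool of array 4. Without array 4, 11 of the 19 had a mean below 0 and the median was -0.03, and without array 1 the median was -0.30. The neutrophil proteins S100A8 and S100A9 had mean ratios of -1.42 and -1.84, CD14 of monocytes -0.72 and the pan-leukocyte gene PTPRC -0.10, while CD79A and CD79B of the B-cell receptor had no tested probe. In all, 16 of the 19 were above the control level in all 8 pools.

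Of 15 tested markers of surface and oviduct epithelium, 13 had a mean below 0, against 51.6% of all genes tested, with a median of -0.53. Without array 4 the count was 14 and the median -0.20. Without array 1 the count was 15 and the median -1.41. Their medians on arrays 1 to 4 were 0.46, -0.70, -0.50 and -1.25, and the summed level was 13.236 to 14.953 in the good-donor pools and 14.123 to 15.990 in the poor-donor pools. EPCAM had a mean ratio of -1.37 at its brightest probe, but its 2 tested probes had means from -1.37 to 0.02. The keratin KRT8 had a mean of -1.04, whereas PAX8 and FOXJ1 stood at 0.05 and 0.01. In all, 14 of the 15 markers were above the control level in all 8 pools. On array 1 the epithelial median was above 0 while GLUL was at -0.26, and on arrays 2 to 4 both were below 0. Of 8 granulosa markers, all had a mean above 0, where 51.6% of all genes tested had one below 0. Their median was 0.19, with medians of 0.10, 0.25, 0.25 and 0.13 on arrays 1 to 4. INHA, INHBA, CYP19A1 and CYP11A1 were each above 0 on only 2 of 4 arrays. For INHA and INHBA these were the arrays with good donors in Cy5, for CYP19A1 and CYP11A1 those with good donors in Cy3. The summed level of the granulosa markers on arrays 1 to 4 was 16.767, 16.735, 15.996 and 16.276 in the good-donor pools. In the poor-donor pools it was 16.053, 15.417, 16.689 and 16.549. The good-donor pool was thus higher on arrays 1 and 2, where it was in Cy5, and lower on arrays 3 and 4, where it was in Cy3. The summed level of all genes tested had the same split by dye. It was 23.402, 23.393, 23.228 and 23.216 in the good-donor pools and 23.233, 23.236, 23.356 and 23.419 in the poor-donor pools. The part of the dye in these sums was not tested. Of the 8 markers, 3 had a mean below 0 without array 4, 1 without array 1 and 1 without array 2. Theca, endothelial and oocyte markers had medians of -0.01, 0.05 and -0.01, and the sign of each changed with 1 array left out: theca at 0.02 without array 2, endothelium at -0.003 without array 1 and oocyte at 0.02 without array 1. Without array 4, the mean ratio of GLUL was -0.48, beside medians of -0.03 for the leukocyte and -0.20 for the epithelial markers. On arrays 2 and 3, GLUL was at -0.64 and -0.52 and the epithelial median at -0.70 and -0.50. The leukocyte median was -0.14 and 0.03 there, and single markers differed. S100A9 was at -1.69 and -0.66, CD14 at -0.89 and -0.48 and PTPRC at 0.12 and -0.01. The part of leukocytes or epithelium in the GLUL values was not tested.

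**Figure D4:**
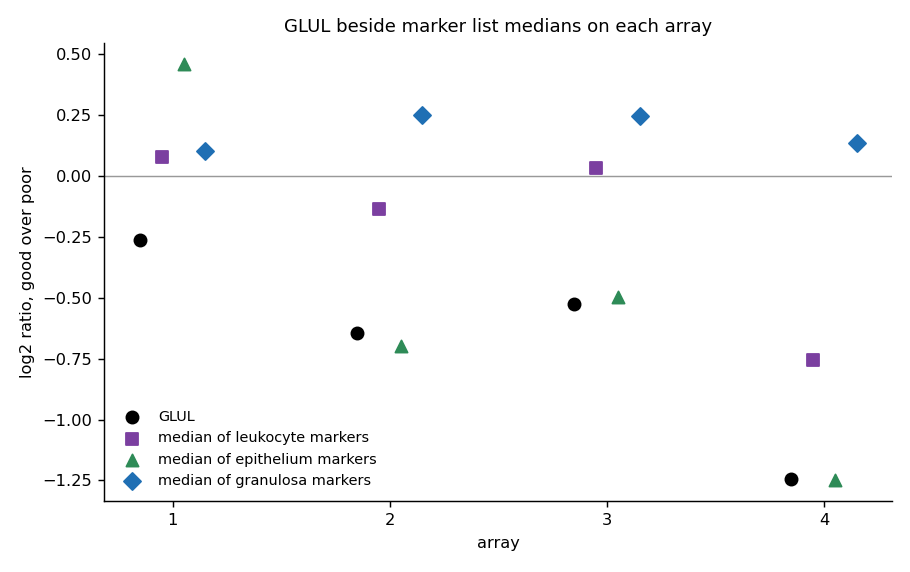
Log2 ratio of good over poor on each of the 4 arrays for GLUL (black circles) and for the median of the tested leukocyte (purple squares), epithelium (green triangles) and granulosa (blue diamonds) markers. GLUL is below 0 on every array, and the leukocyte median departs from 0 mainly on array 4, at -0.76. Single leukocyte markers, not drawn, differ from that median, as on array 2 with S100A9 at -1.69 and PTPRC at 0.12. The epithelium median lies near GLUL on arrays 2 to 4 and above 0 on array 1. The granulosa median is above 0 on every array. The summed granulosa level, not drawn, was lower in the good-donor pool on arrays 3 and 4, where that pool was in Cy3.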

How the data were processed

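Per the file headers, each spot has a deposited foreground and local background intensity, as mean and median, for Cy5 (635 nm) and Cy3 (532 nm). These values are linear and not normalised, and the scanner software is not given in the sources used here. A value table of normalised log2 ratios deposited by the authors states no method, direction or centring. Against the scanner values of arrays 1 to 4 its columns had r of -0.985, -0.974, 0.969 and 0.984 with Cy5 over Cy3, so they run as poor over good; their medians were 0.0235, 0.00392, -0.0151 and -0.0293, and the normalisation stays unknown. The table served as an alternative only.

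Mean foreground was corrected with median background by normexp (offset 50), normalised by loess within arrays with control spots at weight 0 and by Aquantile between arrays (limma 3.58.1, R 4.3.3; statmod 1.5.0 for separate channels). Probes entered the tests when, in at least 4 of 8 channels, their foreground lay above the control level, the 95th percentile of dark-corner and negative spots. The ratios were tested against 0 with lmFit and eBayes, two-sided, with Benjamini-Hochberg adjustment over 31917 probes, threshold 0.05, and the fit was tested on simulated data. A gene was represented by its brightest tested probe. A list's summed level is the log2 of the summed intensities of those probes.

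Gene symbols come from the platform annotation, in which 21790 probes had 1 symbol and 22004 had none. The RefSeq table of ARS-UCD2.0 held 14114 of the 15229 symbols, a listed synonym updated 982, and 133 stayed as they were. The files name no genome build, so no coordinates are given. The text names all probes of the 6 genes, other genes of their pathways from a list of names (some are not reported here) and the 5 genes nearest to GLUL; markers of other cell types are named as examples. The members, lists and named genes were chosen with earlier results of these data known. Each array pairs 1 good-donor with 1 poor-donor pool, all on 1 slide. The p-values measure the spread between 4 arrays of pooled RNA, not between animals, and that number of arrays limits the precision.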

Additional observations from a re-analysis of the deposited data

Results flagged for a closer look

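Single pools stood apart from the rest of their group for a pair of genes. GLUD1 was at 6.05 in the poor-donor pool of array 2, against 6.26 to 6.28 in the other poor-donor pools. SLC1A5 was at 8.23 in the good-donor pool of array 2, against 8.49 to 8.52 in the other good-donor pools. Among 27 sets of 4 values examined, 2 such pools were found, where chance gives about 1.35.

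For 5 of the 9 probes both ratios of good over poor had one sign with good donors in Cy5 and both had the opposite sign with good donors in Cy3, as for 29.4% of all probes tested. The mean with the good-donor pool in Cy5 minus that with it in Cy3 was 0.807 for ASNS EMBV3_28036 and 0.096 for ASNS EMBV3_25840, which was below the control level and was not tested. It was 0.609 and 0.422 for the dim SLC38A2 probes EMBV3_31844 and EMBV3_40405, and -0.129 for SLC38A3. As limma's test of Cy5 over Cy3, which tests the same contrast, the unadjusted p was 0.0179 for ASNS EMBV3_28036, 0.0212 for EMBV3_40405, 0.114 for EMBV3_31844 and 0.215 for SLC38A3, and the adjusted p was 0.245, 0.251, 0.388 and 0.494. The bright SLC38A2 probe and GLUD1 had mixed signs within an orientation, with means of 0.42 and 0.11 for good donors in Cy5 and of -0.09 and -0.25 for good donors in Cy3. Neither the means of GLUL nor those of SLC1A5 differed in sign between orientations.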

How the results depend on the processing

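Leaving out 1 array at a time gave means from -0.80 to -0.48 for GLUL, whose sign could not change because all 4 ratios were below 0, and from -0.28 to -0.08 for SLC1A5. Other background corrections, normalisations, array weights and the deposited ratios gave -0.71 to -0.64 for GLUL; the filters and models that keep the mean of the 4 ratios cannot move it. The mean of SLC38A3 changed sign with no background correction (0.031), in the authors' deposited ratios (0.0016) and with array weights (0.0078), each a move of under its SD over arrays; the cause was not tested. Leaving out arrays singly gave -0.031 to 0.039 for SLC38A3, -0.052 to 0.31 for ASNS, -0.12 to 0.32 for SLC38A2 and -0.20 to 0.031 for GLUD1. Above the control level in all 8 channels, GLUD1 and SLC38A3 gave no value. The count of probes past limma's adjusted threshold was 0 in all 16 alternatives, and the smallest adjusted p was 0.111, with separate channels and a dye term, where 3228 probes had an unadjusted p under 0.05 (1133 as reported, 636 to 1838 in the others). Leaving out arrays from the lists was chosen after seeing the data; beside the counts given in the results, the 3 endothelial markers below 0 became 1 without array 2, 3 or 4, and the 3 oocyte markers 1 without array 2. Each ratio is taken within an array, so the reported test already pairs the pools, as does the separate-channel fit.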

Other observations

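Further amino acid genes were singled out after their values were seen. GFPT2, which uses glutamine to start hexosamine synthesis, had ratios of 4.54, -1.64, -2.79 and -1.65 on arrays 1 to 4, so the good-donor pool was the higher on array 1 and the lower on the others. GFPT1, which is related to GFPT2, had a mean of -0.11 ± 0.17 (SD, n = 4). OVGP1, the oviductal glycoprotein, is an epithelial marker and not an amino acid gene, and had ratios of 4.48, -2.28, -3.62 and -0.50. A link between GFPT2 and OVGP1 was not tested. SLC6A14, a broad carrier of neutral and basic amino acids found in epithelia, had ratios of 0.72, -0.86, -0.94 and -3.38, and its 3 probes had means from -1.12 to -0.83.

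Among the aminoacyl-tRNA synthetases, WARS1 for tryptophan and YARS1 for tyrosine were lower in the good-donor pool on all 4 arrays. WARS1 had ratios of -0.50, -0.34, -0.18 and -0.90, while its other probe had a mean of -0.02. YARS1 had ratios of -0.09, -0.34, -0.24 and -0.55. TARS1 for threonine stood at -1.92 on array 4 and between -0.49 and 0.25 on the others. None of the 3 passed limma's adjusted threshold (adjusted p = 1.00 for each). GMPS, which takes glutamine nitrogen into guanine nucleotides, was higher in the good-donor pool on all 4 arrays, with a mean of 0.29 ± 0.04 (SD, n = 4). Its unadjusted limma p was 0.0021 and its adjusted p 1.00. Because GMPS was singled out on its values, nothing is read from the unadjusted p.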
